A study of Mus musculus with 10 samples.

Results

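The genes described here mark the neurons and glia of the gut wall: Elavl4, Tubb3, Uchl1, Prph, Ret, Chat, Nos1 and Sox10. They were taken by symbol from a table of 47069 mouse genes, and each of the 8 was found once. All 8 passed the filter on low counts and are among the 16179 genes tested. The libraries came from C57BL/6 intestinal organoids kept for 50 days in Matrigel with Noggin, EGF and R-spondin-1. Control organoids received saline. The DMBA group, labelled Long, received the carcinogen 7,12-dimethylbenzanthracene. The TAM short and TAM long groups received tamoxifen and are labelled dosage-sensitive, and the DMBA+TAM group received both agents. Per the study's methods the organoids of all groups derived from mice that carried both Lgr5-EGFP-CreERT2 and Ppp2r1a flox/flox, in which tamoxifen activates Cre in the Lgr5+ crypt stem cells and so deletes the PP2A scaffold gene Ppp2r1a in them, a change that their descendants inherit. The sample titles carry other codes, NS for control, NL for DMBA, DSS_S and DSS_L for TAM short and TAM long, and Lgr5 for DMBA+TAM, so that control shares the letter S with TAM short. No dose was given in the labels, and neither was the meaning of these codes or of short and long. Each of the 5 groups held 2 libraries, which nothing in the labels ties to separate cultures or animals, so the p-values measure only the spread between these samples.

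The enteric nervous system is a network of neurons and glia that descends from the neural crest and lies in the muscle layers and submucosa, outside the epithelium. Its precursors carry the receptor RET, which is switched on by GDNF bound to the co-receptor GFRA1 and directs their migration along the gut. Mature neurons differ by transmitter: excitatory motor neurons make acetylcholine and inhibitory ones make nitric oxide and VIP. Some of the genes are not restricted to neurons, since tuft cells of the epithelium also carry Chat and some enteroendocrine cells also carry neuronal proteins.

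The libraries held 8828247 to 10923673 counts, except the DMBA+TAM libraries with 1592366 and 1915270. Across the table, the replicates of a group differed by more than counting noise, and their chi-square was 5.57 to 67.05 times its degrees of freedom. Ppp2r1a, the gene targeted by tamoxifen, had a normalized CPM (reads of a gene scaled to a common library total) of 123 to 129 in control, 153 to 167 in DMBA, 131 to 147 in TAM short, 157 to 169 in TAM long and 129 to 133 in DMBA+TAM, so its total was in no TAM-labelled group below control by mean, while both DMBA+TAM libraries lay below both DMBA libraries. Gene totals also count exons outside the deleted part and cells without the deletion, and therefore do not check the deletion. The organoid label was checked against 7 epithelial markers, among them Epcam, Krt8 and Vil1: their summed CPM was 11800 to 18800 in the other 4 groups and 21.6 to 26.9 in DMBA+TAM. In the DMBA+TAM libraries 7 skeletal muscle genes summed to 6.33 in replicate 1 and to 7720 in replicate 2. Markers of the small intestine, a list added after the data were seen, summed to 9190 to 37000 CPM in control and TAM short against 305 to 949 in the DMBA and TAM long libraries, both labelled Long.

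Sequence upstream of the start site is shown for a set of 3 genes that fell together in DMBA+TAM against DMBA (Elavl4, Uchl1 and Prph) and for Tubb3, which did not. The sequences are from RefSeq on GRCm38.p6, which had an entry for 6 of the 8 genes (not for Ret and Sox10), and run 5′ to 3′ up to the first base of the gene in RefSeq or GENCODE, whichever lies further upstream. For Elavl4 the entry nearest the GENCODE start, of 4, was taken. Capitals mark TATAAA, the TATA box, CAGCTG, an E-box, ACAAAG, a core that SOX factors bind, TTCAGCACC, which opens the element of the neuronal repressor REST, and CCGCCC, a GC box, each searched on both strands in the 250 bases before the RefSeq start.
Elavl4, chr4:110351912-110352161, - strand: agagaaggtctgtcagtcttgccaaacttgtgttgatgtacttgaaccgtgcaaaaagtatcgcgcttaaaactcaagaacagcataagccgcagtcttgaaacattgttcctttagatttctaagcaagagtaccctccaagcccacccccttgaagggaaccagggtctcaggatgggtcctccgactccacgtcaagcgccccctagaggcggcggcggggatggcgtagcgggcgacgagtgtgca
Uchl1, chr5:66675871-66676090, + strand: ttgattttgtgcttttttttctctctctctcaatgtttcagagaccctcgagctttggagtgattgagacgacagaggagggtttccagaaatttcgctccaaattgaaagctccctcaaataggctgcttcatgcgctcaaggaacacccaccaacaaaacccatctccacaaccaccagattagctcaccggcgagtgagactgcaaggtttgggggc
Prph, chr15:99054924-99055173, + strand: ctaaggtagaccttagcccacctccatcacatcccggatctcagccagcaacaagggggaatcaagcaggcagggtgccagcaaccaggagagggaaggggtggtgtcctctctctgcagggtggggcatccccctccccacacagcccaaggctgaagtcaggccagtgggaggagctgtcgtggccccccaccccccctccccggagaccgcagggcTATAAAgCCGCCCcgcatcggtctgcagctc
Tubb3, chr8:123411303-123411423, + strand: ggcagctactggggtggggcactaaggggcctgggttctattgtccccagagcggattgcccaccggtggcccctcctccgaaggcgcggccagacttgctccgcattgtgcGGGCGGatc

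TATAAA was found in 1 of the 6 members with an entry, Prph, at bases -31 to -26 before its start, and in 12.4% of 32851 promoters of the same length. CCGCCC was found in Prph and Tubb3, and in 32.7% of all promoters. At bases -150 to -145 Chat held CAGCTG, present in 13.0% of promoters. In Elavl4 and Uchl1 no match to these letters was found, and no member with an entry held ACAAAG (16.5% of promoters) or TTCAGCACC (0.3%). The Nos1 entry starts 85807 bases inside the GENCODE gene and is not shown.

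Elavl4 encodes HuD, an RNA-binding protein that stabilizes neuronal mRNAs, and lies at chr4:110203722-110351909 on the - strand of GRCm38. Its normalized CPM was 2.94 and 2.17 in control, 7.95 and 12.2 in DMBA, 2.26 and 0.505 in TAM short, 5.95 and 7.17 in TAM long, and 0.528 and 1.32 in DMBA+TAM. All DMBA and TAM long libraries lay above the control libraries, both DMBA+TAM libraries lay below them, and TAM short overlapped with control. Against control, Elavl4 rose in DMBA (log2 fold change 1.97 ± 0.47 SE, adjusted p = 0.00686, edgeR quasi-likelihood test) and in TAM long (1.35 ± 0.47, adjusted p = 0.0404). The DMBA call was lost without control replicate 2 (adjusted p = 0.0623), and the TAM long call when any of the 4 libraries compared was left out (1.15 to 1.59, adjusted p = 0.079 to 0.197). From DMBA to DMBA+TAM it fell by 3.37 ± 0.73 on the log2 scale (adjusted p = 0.00312). In counts this was 198 against 4 over the pairs of libraries, a ratio of 10.3 after scaling with a 95% counting interval of 3.94 to 38. The lower mean in DMBA+TAM than in control did not pass the test (log2 fold change -1.40, 95% interval -3.59 to 0.78, adjusted p = 0.174).

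Prph encodes peripherin, an intermediate filament of peripheral neurons, and lies at chr15:99055174-99058978 on the + strand. It had 4.52 and 4.58 CPM in control, 16.7 and 15.5 in DMBA, 3.84 and 2.02 in TAM short, 12.9 and 10.3 in TAM long, and 0 and 0.441 in DMBA+TAM. The 5 groups did not overlap, and the DMBA+TAM libraries together held 1 read of Prph. It rose in DMBA by 1.82 ± 0.30 (adjusted p = 0.000799) and in TAM long by 1.35 ± 0.30 (adjusted p = 0.00457) on the log2 scale. Prph was the 1 member called lower in DMBA+TAM than in control, where it fell by 4.16 ± 0.79 (adjusted p = 0.00107). The scaled ratio of control to DMBA+TAM was 18.9 with a counting interval of 3.3 to 758, and that of DMBA to DMBA+TAM was 67.3 with 12 to 2670. Compared with DMBA+TAM, Prph was also higher in TAM long (adjusted p = 7.75e-05) and in TAM short as well (adjusted p = 0.00463).

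Uchl1, at chr5:66676091-66687234 on the + strand, encodes the ubiquitin hydrolase PGP9.5, a general stain for enteric neurons. Control had 4.18 and 3.37 CPM, DMBA 10.2 and 9.66, TAM short 2.147 and 2.145, TAM long 7.42 and 7.17, and DMBA+TAM 2.64 and 2.20. No pair of groups overlapped. Uchl1 rose in DMBA (1.39 ± 0.23, adjusted p = 0.00102) and in TAM long (0.95 ± 0.24, adjusted p = 0.00905) against control. From DMBA to DMBA+TAM it fell by 2.04 ± 0.32 (adjusted p = 0.000426), while the difference of DMBA+TAM from control did not pass the test (-0.65, 95% interval -1.54 to 0.24, adjusted p = 0.203). The TAM long call was lost without control replicate 2 (adjusted p = 0.0726) and with thinned counts (adjusted p = 0.163). The antisense gene Uchl1os, which shares exonic sequence with Uchl1, had 0 counts, but the counts do not separate strands as far as the sources state.

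Tubb3 encodes the neuronal beta-tubulin recognized by the TuJ1 antibody and lies at chr8:123411424-123422015 on the + strand. Its CPM was 3.39 and 4.58 in control, 13.6 and 8.54 in DMBA, 2.60 and 1.39 in TAM short, 9.40 and 10.6 in TAM long, and 18.5 and 11.45 in DMBA+TAM. DMBA, TAM long and DMBA+TAM all lay above control, and DMBA+TAM overlapped with DMBA. The differences from control passed the test in DMBA (1.48 ± 0.35, adjusted p = 0.0062), TAM long (1.33 ± 0.35, adjusted p = 0.0111) and DMBA+TAM (1.89 ± 0.38, adjusted p = 0.00162). The TAM long call was lost without control replicate 1, without TAM long replicate 2 and with thinned counts (adjusted p = 0.0596 to 0.0875), and the DMBA call without control replicate 1 (0.0581) and with thinned counts (0.0554). Between DMBA+TAM and DMBA the difference was 0.42 with a 95% interval of -0.49 to 1.32 (adjusted p = 0.343). Tubb3 was thus called in neither direction between these groups, where Elavl4, Uchl1 and Prph fell.

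Ret encodes the GDNF receptor kinase and lies at chr6:118151745-118197718 on the - strand. It was at 7.35 and 7.47 CPM in control, 13.2 and 10.6 in DMBA, 4.18 and 4.67 in TAM short, 6.47 and 7.86 in TAM long, and 14.8 and 13.7 in DMBA+TAM. DMBA+TAM was the highest group and did not overlap with any other, and TAM long overlapped with control. Ret rose against control in DMBA+TAM (0.94 ± 0.23, adjusted p = 0.00559) and in DMBA (0.68 ± 0.21, adjusted p = 0.0216). The DMBA call was lost without control replicate 1, control replicate 2 or DMBA replicate 1 (adjusted p = 0.0868 to 0.143), with only these groups fitted (0.0542) and by DESeq2 (0.0605). It was also higher in DMBA+TAM than in TAM long, by 0.99 ± 0.23 (adjusted p = 0.00492), and exceeded TAM short by 1.68 ± 0.24 (adjusted p = 0.000195), but its difference from DMBA, 0.25 with a 95% interval of -0.33 to 0.83, did not pass (adjusted p = 0.369).

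Nos1 encodes neuronal nitric oxide synthase, the enzyme of inhibitory motor neurons, and lies at chr5:117781032-117958840 on the + strand. The libraries had 2.83 and 1.69 CPM in control, 20.7 and 13.4 in DMBA, 0.791 and 0.631 in TAM short, 3.795 and 3.83 in TAM long, and 0 and 3.525 in DMBA+TAM. DMBA stood above every other group, and the DMBA+TAM libraries lay on either side of control. Nos1 rose in DMBA by 2.91 ± 0.50 against control (adjusted p = 0.00115), a 7.5-fold change. In TAM long the difference was 0.75 ± 0.53 (adjusted p = 0.274), and from DMBA to TAM long Nos1 fell by 2.16 ± 0.46 (adjusted p = 0.0442), a comparison added after the data were seen. This last call was lost without DMBA replicate 1, TAM long replicate 1 or TAM long replicate 2. All 8 reads of Nos1 in DMBA+TAM were in replicate 2, the library with the skeletal muscle genes, and skeletal muscle also makes this enzyme. With that library left out Nos1 was called lower than control in DMBA+TAM, whereas with both libraries the difference was -0.26 ± 0.79 (adjusted p = 0.797). The part of the muscle genes in this value was not tested.

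Chat encodes choline acetyltransferase, which makes acetylcholine, and lies at chr14:32408203-32465989 on the - strand. Control libraries held 0 and 2 reads, DMBA 17 and 11, TAM short 0 and 0, TAM long 5 and 10, and DMBA+TAM 0 and 0. In CPM this was at most 0.241 in control, 1.52 and 1.235 in DMBA and 0.431 and 0.983 in TAM long. Chat rose in DMBA against control (adjusted p = 0.0218), with a scaled ratio of 11.9 and a counting interval of 3.01 to 103, a call lost without control replicate 1 or DMBA replicate 1 and by DESeq2. With thinned counts Chat did not pass the filter on low counts. TAM long was at least 1.97-fold higher than TAM short, taking 3 counts per library as the floor, and this difference passed the test (adjusted p = 0.026), but not without TAM short replicate 1, TAM short replicate 2 or TAM long replicate 2 (adjusted p = 0.0894 to 0.101). A count of 0 in the shallow DMBA+TAM libraries allows up to 1.584 and 1.322 CPM, which reaches the DMBA level. The lower Chat in DMBA+TAM than in DMBA passed the edgeR test (adjusted p = 0.0486). For 28 against 0 reads the counting interval began at a 1.47-fold fall. The floor of 3 counts per library gave 0.948 and did not exclude equal levels. The call was lost when any of the DMBA or DMBA+TAM libraries was left out, and by DESeq2. Slc18a3, the vesicular acetylcholine transporter gene nested in the Chat locus with no shared exon, had 73 counts in all libraries together.

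Sox10, at chr15:79154908-79165240 on the - strand, encodes a transcription factor of enteric glia and of neural crest precursors. CPM was 0.678 and 1.57 in control, 2.68 and 1.685 in DMBA, 0.226 and 0.126 in TAM short, 0.776 and 0.688 in TAM long, and 0.528 and 1.32 in DMBA+TAM. Only TAM short, with 3 reads over its libraries, and DMBA lay outside the range of the control libraries on the same side for both replicates. In 10 comparisons Sox10 passed the edgeR threshold 0 times and that of DESeq2 0 times, with an unadjusted edgeR p under 0.05 in 4. These were TAM short against control (-2.54, adjusted p = 0.053), TAM long against DMBA (-1.56, adjusted p = 0.146), TAM long against TAM short (1.95, adjusted p = 0.0714) and DMBA+TAM against TAM short (adjusted p = 0.0705), where no library held more than 3 reads and no fold is given. The first of them passed without the filter on low counts, and the last with library size only.

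**Figure D1:**
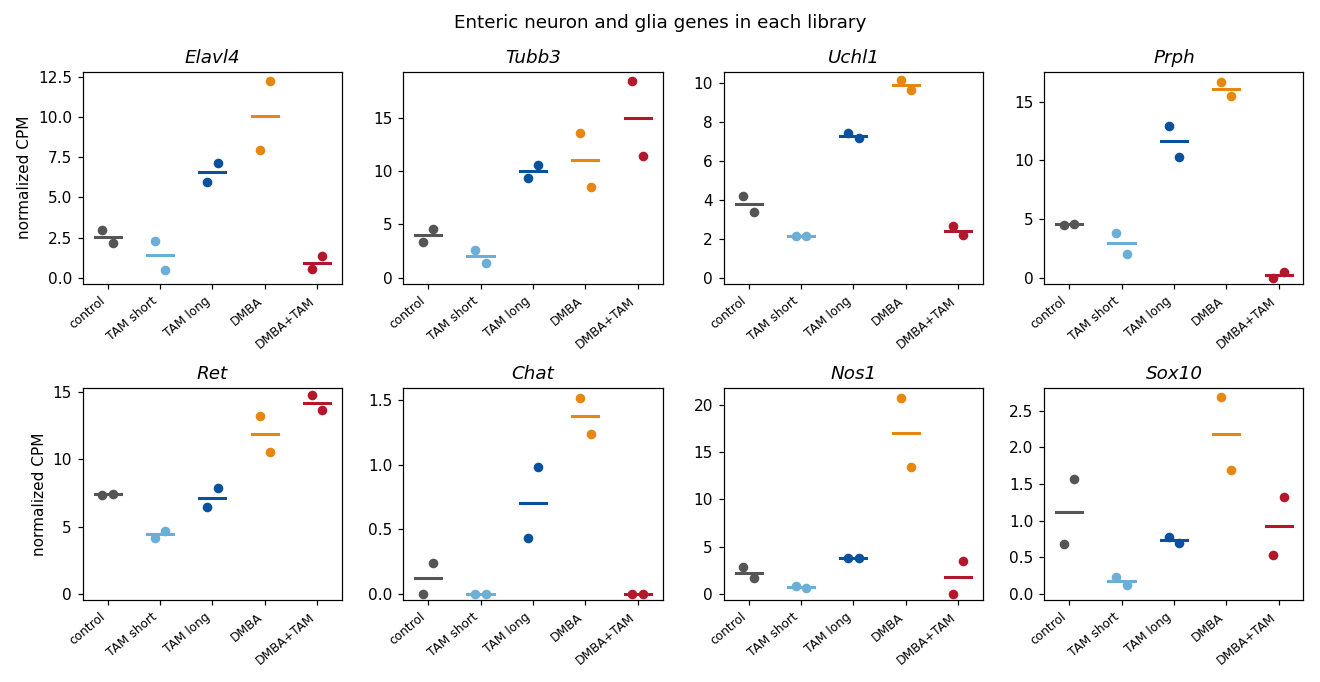
Normalized CPM of each of the 8 genes (vertical axis, linear, a scale for each gene) in the 2 libraries of each group (horizontal axis). Points are libraries and bars are group means. Tubb3 and Ret are highest in DMBA+TAM and the other 6 genes in DMBA, and Prph and Chat are at or near 0 in DMBA+TAM.

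Levels between genes were compared in the authors' FPKM, which is per gene length. In control, Uchl1 was highest at 4.45 ± 0.781 (SD, n = 2), followed by Prph at 2.12 ± 0.033, Tubb3 at 1.80 ± 0.336 and Ret at 1.26 ± 0.016. In DMBA the order began with Uchl1 at 14.4 ± 1.95, Prph at 9.28 ± 1.40, Tubb3 at 6.28 ± 2.60 and Nos1 at 4.74 ± 1.88. DMBA+TAM had another order: Tubb3 led at 9.52 ± 3.18, then Uchl1 at 4 ± 0.521 and Ret at 3.39 ± 0.199, and Prph was at 0.144 ± 0.203. The lengths behind these values differed from the listed lengths for Elavl4, Uchl1, Nos1, Prph and Ret (for Nos1, 3816 against 10123 bases), so the order of genes depends on them, while comparisons of 1 gene between groups do not.

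The order of the groups was similar for most members. DMBA had the highest mean in 6 of the 8 genes and DMBA+TAM in 2, Tubb3 and Ret. TAM short had the lowest mean in 5 genes, and DMBA+TAM in Elavl4 and Prph, with Chat at 0 in both. How often all tested genes had their highest or lowest mean in each group was not counted. The summed CPM of the 8 genes was 25.89 and 25.65 in control, 86.5 and 72.8 in DMBA, 16.04 and 11.5 in TAM short, 47.2 and 48.6 in TAM long, and 37.0 and 33.9 in DMBA+TAM. The groups did not overlap in this sum. Tubb3 and Ret made up 82.4% of it in DMBA+TAM, against 28.8% in DMBA, 35.8% in TAM long, 44.2% in control and 46.6% in TAM short. The other 6 genes summed to 6.25 CPM in DMBA+TAM, 14.4 in control and 56.7 in DMBA. In bulk RNA, fewer cells of a type and less RNA per cell cannot be told apart.

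**Figure D2:**
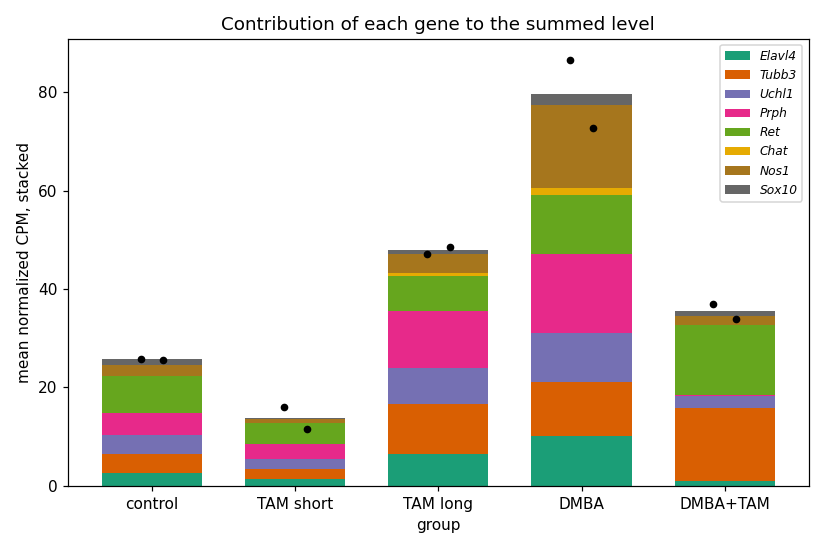
Mean normalized CPM of the 8 genes, stacked by gene (vertical axis, from 0), in each group (horizontal axis). Black points are the summed CPM of each library. The sum is highest in DMBA, and in DMBA+TAM 82.4% of it is Tubb3 and Ret.

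DMBA was compared with control for organoids given the carcinogen without tamoxifen. Of the 8 members 7 rose, all but Sox10, against 24.5% of all tested genes, and the median log2 fold change was 1.65 against 0.07 over all genes. Scaling by library totals only moved the median of all genes against control to 0.38 for DMBA, 0.37 for TAM long and 0.31 for DMBA+TAM, and the shares called higher and lower to 34.5% and 14%, 34.2% and 13.3%, and 38.7% and 23.2%, while the members called were the same. Leaving out control replicate 1 reduced the count to 4 (Elavl4, Nos1, Prph and Uchl1). It was 5 without control replicate 2, where Elavl4 and Ret were lost, 5 without DMBA replicate 1 and by DESeq2, where Chat and Ret were lost, and 5 with thinned counts, where Tubb3 was lost and Chat not tested. With tamoxifen in TAM long, 4 rose (Elavl4, Tubb3, Uchl1 and Prph; 23.2% of all genes) with a median of 1.14 against 0.05. The count was 2 without control replicate 1, control replicate 2 or TAM long replicate 2, and Prph was called in each, but not with thinned counts (adjusted p = 0.297). Elavl4 was lost in each fit that left out a control or TAM long library, but was the 1 member called after thinning all libraries to 1592366 counts.

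In TAM short no member passed the edgeR threshold against control, where 14.3% of all genes did, and DESeq2 gave 0 as well. Of the 8 genes 5 had an unadjusted p under 0.05, as did 28.8% of all tested genes, and all 8 means were below control, with a median over the 7 members other than Chat of -0.85 against -0.04 over all genes. The difference was closest to the threshold for Sox10 (adjusted p = 0.053), Ret (-0.74, adjusted p = 0.0554) and Uchl1 (-0.81, adjusted p = 0.0727). Between the tamoxifen groups, 7 members were higher in TAM long than in TAM short, all but Sox10, against 22% of all genes. The median without Chat was 1.97 against 0.05. Leaving out TAM short replicate 1 or replicate 2 reduced the count to 4 (Elavl4, Prph, Tubb3 and Uchl1), and thinning to 2.

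The libraries labelled DMBA+TAM held few epithelial reads and many of fibroblast genes, so the effect of the agents and that of another makeup of cells cannot be told apart. In the check of the organoid label, all 7 epithelial markers were called lower there than in control (median -9.18). From what material these libraries came was not tested further. In DMBA+TAM against control 2 members rose, Tubb3 and Ret (29% of all genes rose), and 1 fell, Prph (35.3% of all genes fell), neither count above these shares, with a median of -0.26 against -0.17 (0.23 against 0.31 when scaled by library totals only). Chat, at 0 reads in DMBA+TAM, was left out of this and the following medians. The same 3 were called by DESeq2, with thinned counts and in each fit that left out a library, to which the fit without DMBA+TAM replicate 2 added Nos1. Against DMBA, 4 fell (Elavl4, Uchl1, Prph and Nos1; 29.9% of all genes) with a median of -2.04 against -0.14. Chat was called as well, a fall beyond counting error (lower limit of the counting interval 1.47-fold) but not detectable by the floor of 3 counts. This call was lost in most alternatives, among them DESeq2 and each fit that left out a library. Against TAM long, Elavl4, Uchl1 and Prph fell (29.9% of all genes) and Ret rose (25.3%), but Elavl4 was lost without DMBA+TAM replicate 1 (adjusted p = 0.0786) and Uchl1 with thinned counts (adjusted p = 0.0687). Against TAM short, Tubb3 and Ret rose (29.3%) and Prph fell (33.8%). When only these groups were fitted, Prph did not pass the filter on low counts and was not tested. Sox10 was called higher as well with library size only, and Nos1 without DMBA+TAM replicate 1. These comparisons share the DMBA+TAM libraries, and their calls are not independent of each other.

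The change with TAM long was tested for a difference with DMBA present, as the interaction of both agents. It was negative and past the threshold for 5 members (Elavl4, Uchl1, Prph, Chat and Nos1; 26.5% of all genes in this direction), of which Chat had 0 reads in DMBA+TAM, with a median without Chat of -2.98 against -0.12. For Tubb3 the interaction was -0.91 ± 0.49 (adjusted p = 0.154), for Ret 0.30 ± 0.31 (adjusted p = 0.45) and for Sox10 -0.60 ± 0.96 (adjusted p = 0.639). With TAM short in place of TAM long it passed for Prph and Uchl1 (lower) and Ret (higher), but not for Elavl4 (-2.52, adjusted p = 0.0644) and Nos1 (-1.52, adjusted p = 0.271).

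**Figure D3:**
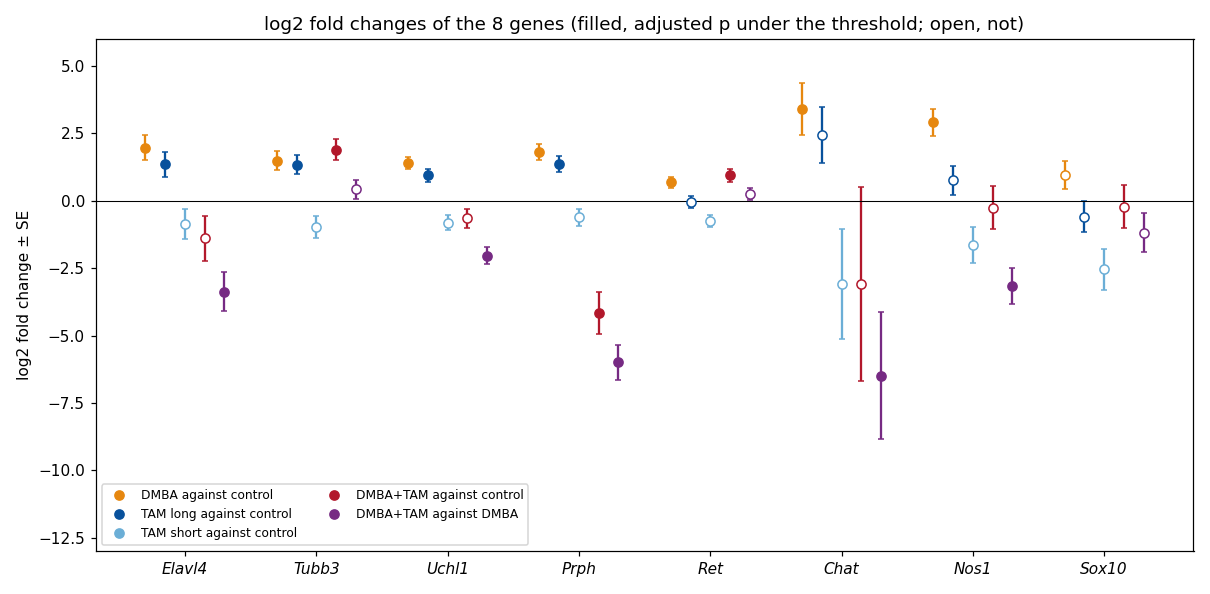
log2 fold change ± SE (vertical axis) of each gene (horizontal axis) in 5 comparisons (colours). Filled points passed the adjusted threshold and open points did not. The DMBA and TAM long differences are above 0 for most genes, the DMBA+TAM differences from control part with Tubb3 and Ret above 0 and Prph far below, and the fitted Chat values that involve DMBA+TAM or TAM short rest on a group with 0 reads and are no bound.

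The DMBA and TAM long libraries share the label Long. In 6 of the 8 genes, all but Ret and Sox10, all 4 of these libraries lay above all 4 control and TAM short libraries, which was so for 24.2% of tested genes. For Prph the Long libraries ran from 10.3 to 16.7 CPM and the others from 2.02 to 4.58. Between these 2 Long groups only Nos1 passed the test (lower in TAM long, as for 1.46% of all genes), and the medians were -0.68 over the members and 0 over all genes. Control organoids labelled Long and DMBA organoids labelled short were not analysed here, so the effect of DMBA and whatever the label Long stands for cannot be told apart.

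The counts of the following lists are set beside the shares over all tested genes, which against control were 24.5% higher and 23.3% lower in DMBA, 23.2% and 22.8% in TAM long, and 29% and 35.3% in DMBA+TAM. Of 12 other neuronal structure genes 8 rose in DMBA (median 1.42) and 7 in TAM long (median 1.43) against control, and the others did not pass the test. Stmn2, a growth cone protein, had 52 and 34 reads in control, 229 and 115 in DMBA and 165 and 180 in TAM long (log2 fold changes 1.74, adjusted p = 0.00108, and 1.67, adjusted p = 0.00143). Snap25, a protein of transmitter release, rose by 1.46 in DMBA (adjusted p = 0.00983) and by 1.52 in TAM long (adjusted p = 0.00814). In DMBA+TAM 6 of the 12 rose against control and 1 fell (median 0.95), among them Gap43 of growing axons, which rose by 1.19 (adjusted p = 0.0083), whereas Stmn2 was at 0.26 (adjusted p = 0.59).

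Of the RET and endothelin signalling genes, 9 of 11 were tested. The co-receptor gene Gfra2 rose in DMBA+TAM by 3.51 against control (adjusted p = 3.76e-05), from 29 and 14 reads to 39 and 82 in shallower libraries. The endothelin receptor gene Ednrb rose by 3.04 (adjusted p = 1.86e-06) and the converting enzyme gene Ece1 by 1.98 (adjusted p = 4.32e-07), while the ligand gene Edn3 had 946 and 861 reads in control and 0 and 0 in DMBA+TAM (adjusted p = 1.72e-07). In all 4 of the 9 rose and 1 fell. The RET ligand gene Gdnf, named after its values were seen, rose in DMBA by 1.77 (adjusted p = 0.00829) and in TAM long by 1.56 (adjusted p = 0.0159) and had 0 and 1 reads in DMBA+TAM (adjusted p = 0.0705). In DMBA 3 of the 9 rose and 2 fell (median 1.03), and Edn3 fell by 2.32 (adjusted p = 1.44e-05).

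Transcription factor genes of enteric neurons parted in DMBA+TAM, where 1 of the 4 tested rose and 3 fell against control. Hand2, needed for neuronal maturation, had 48 and 35 reads in control and 0 and 1 in DMBA+TAM (adjusted p = 0.00233). Zeb2, which is active in neural crest and in many mesenchymal cells, rose by 4.10 (adjusted p = 2.54e-07). In DMBA the differences of Hand2 (0.94, adjusted p = 0.0608) and Zeb2 (0.58, adjusted p = 0.0547) did not pass the test, and Tbx3 fell by 3.49 (adjusted p = 0.000377).

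Neuropeptide genes rose in 5 of 10 cases in DMBA and in 7 of 10 in TAM long, with 1 lower in each (medians 1.83 and 1.97). Penk, the enkephalin precursor, had 8 and 4 reads in control, 124 and 103 in DMBA, 84 and 91 in TAM long and 35 and 136 in DMBA+TAM, and rose in all 3 groups (adjusted p = 0.000416, 0.00105 and 1.26e-05). Vip, the peptide of inhibitory motor neurons, had 429 and 362 reads in control, 408 and 684 in DMBA and 0 and 0 in DMBA+TAM, where it was lower than control (adjusted p = 6.75e-05). Tac1, the substance P precursor, fell from 70 and 47 reads to 0 and 1 (adjusted p = 0.000222). In DMBA+TAM 2 of the 10 rose and 6 were called lower than control. Calcb, Cartpt and Nmu of these 6, named after their values were seen, had 0 reads in DMBA+TAM, which allow 1.584 and 1.322 CPM in the 2 libraries. Nmu, at 0.637 CPM in control, was below both levels, so that its fall was not detectable by the floor of 3 counts. Calcb (1.51) and Cartpt (1.34) lay between them.

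Among the genes of transmitter synthesis and their receptors 5 of 9 tested rose in DMBA and 1 fell (median 1.49), and in TAM long 2 rose and 2 fell (median 0.62), near the shares over all genes. Ache, which breaks down acetylcholine, rose by 1.99 in DMBA (adjusted p = 0.000508) and by 1.36 in TAM long (adjusted p = 0.00485), and the nicotinic receptor gene Chrna3 by 1.66 in DMBA (adjusted p = 0.00779). In DMBA+TAM 4 were called lower and 1 higher than control, Chrna3 with 1 and 0 reads (adjusted p = 0.0177). Slc18a3, another of the 4, had 1.05 CPM in control and 0 reads in DMBA+TAM. There 0 reads allow 1.584 and 1.322 CPM, so that its fall was not detectable by the floor of 3 counts either. Ddc, an enzyme of amine synthesis also present in epithelium, fell by 2.97 in DMBA (adjusted p = 9.12e-06).

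Enteric glia genes other than Sox10 included S100b, a calcium-binding protein of glia, with 9 and 9 reads in control, 26 and 19 in DMBA, 32 and 32 in TAM long and 16 and 16 in the shallower DMBA+TAM libraries. S100b rose against control in all 3 groups, by 1.08 in DMBA (adjusted p = 0.0452), by 1.48 in TAM long (adjusted p = 0.0106) and by 2.86 in DMBA+TAM (adjusted p = 0.000154). Erbb3, which glia and epithelium share, fell by 5.36 in DMBA+TAM (adjusted p = 1.08e-07). Of 9 tested glia genes 4 rose in DMBA (median 0.74), 3 in TAM long (median 0.70), and in DMBA+TAM 3 rose and 2 fell, counts near or below the shares over all genes in that comparison.

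Markers of smooth muscle and interstitial cells of Cajal moved with the members in DMBA and TAM long and from DMBA to DMBA+TAM, and their part in the results was not tested. In DMBA all 9 smooth muscle genes rose (median 2.29), with a summed CPM of 1930 to 2280 in control, 7670 to 13000 in DMBA, 1310 to 2470 in TAM short, 9000 to 13800 in TAM long and 1540 to 1730 in DMBA+TAM. All 9 also rose in TAM long (median 2.48). The 3 markers of interstitial cells of Cajal, the pacemaker cells between nerve and muscle, rose in both groups, Kit by 2.42 in DMBA (adjusted p = 5.72e-06) and by 1.96 in TAM long (adjusted p = 2.06e-05), and their summed CPM was 29.1 to 32 in control, 189 to 259 in DMBA and 112 to 175 in TAM long. Fibroblast genes rose in 7 of 8 cases in DMBA (median 0.61), in 4 of 8 with 1 lower in TAM long, and in 8 of 8 in DMBA+TAM (median 3.81), where they summed to 31400 to 32200 CPM against 1130 to 1310 in control. Endothelial genes rose in 1 of 5 cases in DMBA and 1 of 5 in TAM long, and in 5 of 5 in DMBA+TAM, where fat cell genes rose in 4 of 4. Against DMBA, where 4 members fell, the fibroblast (8 of 8), endothelial (5 of 5) and fat cell (4 of 4) genes rose in DMBA+TAM (25.2% of all genes), while smooth muscle (9 of 9, median -3.21), Cajal cell (2 of 3, median -2.56) and epithelial genes (7 of 7, median -9.16) fell.

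Epithelial cells that share genes with neurons were looked at in the same way. Enteroendocrine markers rose in 1 and fell in 4 of 9 tested genes in DMBA (median -0.61). Chga, a granule protein, fell by 2.03 (adjusted p = 8.36e-05) and Sct by 1.79 (adjusted p = 0.00427). Pyy rose by 2.77 (adjusted p = 7.77e-05), and Gcg did not pass the test (0.27, adjusted p = 0.371). The summed CPM of the enteroendocrine markers was 152 to 171 in control, 91.6 to 102 in DMBA and 191 to 239 in TAM long, where 4 rose and 2 fell. In DMBA+TAM it was 5.73 to 9.5, with 7 of 9 genes lower than control and 5 of 9 lower than DMBA. Neurod1 of the 7, named after its values were seen, had 1.06 CPM in control and 0 reads in DMBA+TAM. Its fall was not detectable by the floor of 3 counts. Tuft cell genes rose in 4 of 5 tested genes in DMBA and in TAM long (medians 2.28 and 2.15), with summed CPM of 12.4 to 13.7 in control, 50.2 to 58 in DMBA, 8.58 to 8.70 in TAM short, 44.2 to 44.6 in TAM long and 34.3 to 47.1 in DMBA+TAM. Dclk1, which tuft cells share with neurons, rose by 2.62 in DMBA (adjusted p = 1.13e-05) and by 3.01 in DMBA+TAM (adjusted p = 1.61e-06), and 5 of the 7 tuft genes had no read in DMBA+TAM. Chat is used by both cell types, and from which its reads came was not tested. Small intestine markers fell in 8 of 8 cases in DMBA and in TAM long, and colon markers rose in 6 of 6 and 5 of 6. From DMBA to DMBA+TAM, 3 of 5 tested tuft genes (median -6.06) and 6 of 6 colon markers (median -9.79) fell, and none rose. The tuft median is the fitted value of Pou2f3, named after its values were seen, and is no bound. Pou2f3 had 1.01 CPM in DMBA and 0 reads in DMBA+TAM, which allow 1.584 and 1.322 CPM. Its fall was thus called but not detectable by the floor of 3 counts. Over all genes 29.9% fell in that comparison.

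**Figure D4:**
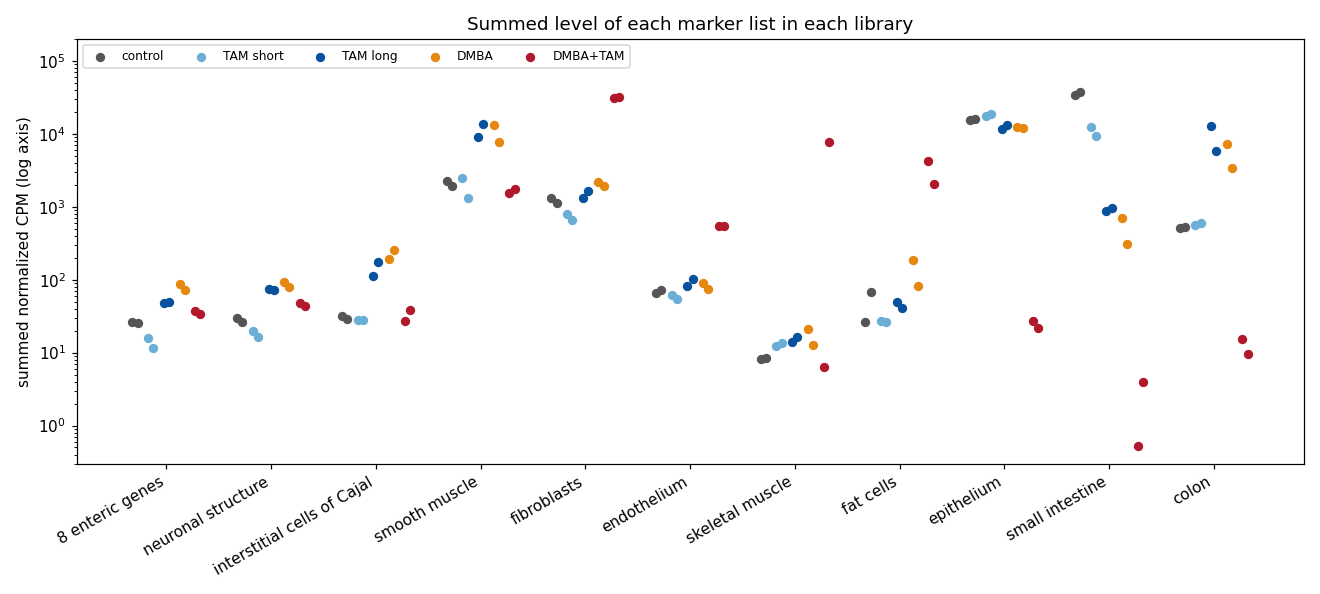
Summed normalized CPM (vertical axis, log scale) of the 8 genes and of 10 marker lists (horizontal axis) in each library, coloured by group. The smooth muscle, Cajal cell and colon lists are higher in DMBA and TAM long, as the 8 genes are, and in DMBA+TAM the epithelial list is at 21.6 to 26.9 CPM and the fibroblast list at 31400 to 32200.

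For each member the 3 tested genes with the most similar pattern were found as those with the smallest root mean square (RMS) difference of log2 CPM over the 10 libraries, each gene centred on its own mean. For Prph these were Cd24a (RMS 0.295), Calb2 (0.313), a calcium-binding protein of enteric neurons, and Kctd14 (0.329), against a median of 1.94 over all genes. Elavl4 was nearest to Mapk10 (0.408), Fam189a1 (0.444) and 9530053A07Rik (0.46), and Mapk10, a neuronal stress kinase, was also second for Nos1 (0.736), after Unc80 (0.728), part of a neuronal cation channel, and before Tenm2 (0.825). Tubb3 was nearest to Mmd2 (0.214), Ror2 (0.232) and Cacng7 (0.243), and Uchl1 to Clybl (0.201), Cers4 (0.205) and Slc4a2 (0.228). Ret varied least among the members (SD 0.58 on the log2 scale) and was nearest to Zfp609 (0.189), Prrc2b (0.191) and Wdr6 (0.198). Chat was nearest to Nkx6-3 (0.281), 3110080O07Rik (0.314) and Trim6 (0.342), and Sox10 to 4930429F24Rik (0.365), Ypel4 (0.366) and Rab6b (0.432). The median over all genes was 1.44 for Elavl4, 1.25 for Tubb3, 1.01 for Uchl1, 0.88 for Ret, 1.27 for Chat, 1.87 for Nos1 and 1.08 for Sox10. Mmd2 and Nkx6-3 had 0 to 12 reads per library, so their nearness rests on few reads and on the prior count of 2. All these distances are descriptions over 10 libraries in 5 groups, in which most patterns are set by the group means.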

How the data were processed

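Poly(A) RNA of 10 libraries was sequenced. The authors mapped reads with TopHat and counted them per gene with HTSeq, and the deposited table gives these counts and FPKM values, which the authors derived from counts and gene length on GRCm38.p6. Strand use is not given in the sources used here. Columns holding the authors' own comparisons were not used. Of 47074 lines, 5 were broken text without counts and were left out. Tests used edgeR 4.0.16 under R 4.3.3: genes filtered by group (filterByExpr), TMM scaling (factors 0.8315 to 1.192), 5 group means, quasi-likelihood F-test, two-sided, Benjamini-Hochberg adjustment over 16179 genes, threshold 0.05. CPM are counts over TMM-scaled totals. Low counts are given with exact 95% counting intervals and a floor of 3 counts, which cover counting error only. With 2 against 2 libraries an exact permutation test cannot go below 0.333 and was not used. The procedure was tested on simulated data. Alternatives were library size only, no filter, replicate block, thinning, only the groups compared, leaving out each library, and DESeq2 1.42.0. The 8 members and 16 other lists were chosen with earlier results of these data known, and 2 lists (small intestine, colon) were added later. Named were all members, up to 4 genes per list by FPKM among those past the threshold against control, and 3 genes most like each member (prior count 2). Some genes of these lists are not reported here. Figures were drawn with matplotlib.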

Additional observations from a re-analysis of the deposited data

Results flagged for a closer look

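The change with TAM long differed with DMBA present for 5 of the 8 genes, by the interaction term of the edgeR fit over all 10 libraries. The log2 interaction was -4.72 for Elavl4 (SE 0.87, adjusted p = 0.0015), -2.98 for Uchl1 (SE 0.40, adjusted p = 0.000191), -7.33 for Prph (SE 0.72, adjusted p = 2.34e-05), -8.91 for Chat (SE 2.49, adjusted p = 0.0195) and -3.91 for Nos1 (SE 0.85, adjusted p = 0.00401). Without DMBA these genes had higher means in TAM long than in control, and with DMBA they had lower means in DMBA+TAM than in DMBA. The fitted Chat value rests on 0 reads in both DMBA+TAM libraries and is no bound. The Chat call was lost without TAM long replicate 2 and without DMBA+TAM replicate 2, with thinned counts Chat did not pass the filter on low counts, and 4 members remained past the threshold in each of these fits (Elavl4, Uchl1, Prph and Nos1). With TAM short in place of TAM long, Prph and Uchl1 of the 5 remained, and Elavl4 (-2.52, adjusted p = 0.0644), Nos1 (-1.52, adjusted p = 0.271) and Chat were lost. The label Long is shared by DMBA and TAM long but not by control, so its part in the interaction and that of the agents cannot be told apart. All 8 reads of Nos1 in DMBA+TAM were in replicate 2, the library with the skeletal muscle genes, and without it the fitted interaction was -10.92 for Nos1 and -11.44 for Prph, values that rest on 0 reads and are no bounds. Over all tested genes 26.5% had a negative interaction past the threshold, and in DMBA+TAM epithelial markers summed to 21.6 to 26.9 CPM against 11800 to 18800 elsewhere.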

How the results depend on the processing

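No member called in a comparison changed direction: of 832 fits of a member under an alternative, 749 kept direction and side of the threshold, 55 lost it, 10 gained it and 18 changed sign, none of these called in the reported fit. Fits in which the filter on low counts removed the member are not among the 832, so calls that ended this way are not among the 55. Examples are Chat with thinned counts, and Prph in DMBA+TAM against TAM short with only these groups fitted. The replicate numbers did not pair the samples (correlations of same-numbered deviations -0.041 to 0.26 over 10 pairs of groups, 1 over 0.1), and the replicate block left the member counts at 3, 7, 4 and 0 in the comparisons with control and at 5 in the interaction, while Chat was lost in DMBA+TAM against DMBA (4 members). With library size only, TAM long against DMBA had 0 members (1 with TMM), and the sign changed for Nos1 (0.23) and Sox10 (0.27) in DMBA+TAM against control and Ret (0.27) in TAM long against control. Without the filter, TAM short against control had 3 members, Nos1, Sox10 and Tubb3, and TAM long against DMBA 1615 genes. With only the groups compared, TAM short against control had 4317 genes and 1 member, and TAM long against DMBA 29 genes and 0 members. Without both DMBA+TAM libraries, an alternative chosen after seeing the data, TAM short against control had 1 member, Nos1. DESeq2 called 857 genes in TAM long against DMBA. Thinning left 4872 genes in DMBA against control, 4518 genes and 1 member in TAM long against control, 1230 genes in TAM short against control, 3997 genes and 2 members in TAM long against TAM short, and 223 genes and 0 members in TAM long against DMBA. It changed the sign of Ret in DMBA+TAM against DMBA (-0.18) and of Elavl4 (0.13) and Uchl1 (-0.11) in DMBA+TAM against TAM short. With TAM short in the interaction 3 members passed, and Tubb3 (1.39) and Sox10 (1.35) changed sign.

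Leaving out 1 library at a time, with a lone library assumed to vary like the other groups, gave 4 to 7 members in DMBA against control, 2 to 3 in TAM long against control, 4 to 7 in TAM long against TAM short and 0 to 1 in TAM long against DMBA. Genes called ranged from 748 to 1161 in TAM short against control, from 70 to 1027 in TAM long against DMBA and from 4467 to 5232 in TAM long against TAM short. The sign depended on the library left out in DMBA+TAM against control for Nos1 (-7.31 to 0.63) and Sox10 (-1.07 to 0.48), in TAM long against control for Sox10 (-1.08 to 0.11) and Ret (-0.22 to 0.09), in TAM long against DMBA for Tubb3 (-0.44 to 0.23), in DMBA+TAM against TAM short for Elavl4 (-1.41 to 0.90) and Nos1 (-5.66 to 2.27), and in DMBA+TAM against TAM long for Sox10 (-0.45 to 0.85). The fitted Nos1 values of -7.31 and -5.66 rest on 0 reads in the lone library and are no bounds. The depth of the 2 DMBA+TAM libraries limits what low values of Chat, Prph and Sox10 can show.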
